A study of Homo sapiens with 46 samples.

Results

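The Cre-specific part of the 4OHT response is the change in RNA that 4-hydroxytamoxifen (4OHT) brought in HCT116 cells with an inducible Cre recombinase, less the change it brought in cells with the same conditional gene and no Cre. It was calculated for each gene as a log2 difference of responses: 4OHT over ethanol in the Cre line, minus 4OHT over ethanol in the line without Cre. All 16726 genes that passed a low-count filter, of 61228 rows in the deposited table, are its members, 44502 rows were not tested, and the members were measured in 8 of the 46 libraries of the series. A positive difference means that 4OHT went with a larger rise, or a smaller fall, in the Cre line.

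HCT116 is a human colon carcinoma line. Both lines carried Ku86Flox/-. They had 1 conditional copy of XRCC5, the gene for Ku80 (also named Ku86), and no other working copy. The first group was Ku86Flox/-:CreERT2 cells given 50 nM 4OHT for 4 days. The second was the same cells given ethanol, the solvent, which the titles place at 4 days as well. The remaining pair of groups were Ku86Flox/- cells without Cre, given 4OHT or ethanol in the same way. The library names of both ethanol pairs carry day 0 instead. If that is the true day, each 4OHT response also holds 4 days of culture, in both lines alike. Each group had 2 libraries, and the labels do not say that these were separate cultures, so the p-values rest on a spread between libraries that may be technical only. The labels do not say how many clones stand behind either line. CreERT2 enters the nucleus when it binds 4OHT, so nuclear Cre and the loss of XRCC5 RNA occurred in the same libraries and cannot be told apart here, because no line with CreERT2 and an intact XRCC5 is among these samples. Gene-level counts do not show which exons were removed.

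Ku80 pairs with Ku70 in a ring that threads onto broken DNA ends, recruits the kinase DNA-PK and starts end joining, and in human cells it also protects telomeres. HCT116 cells have an active p53, the factor that switches on CDKN1A and other arrest genes after DNA damage, and a p53 arrest goes with low transcription of the E2F-driven replication genes and of the mitotic genes that share a cell cycle homology region. Interferon-stimulated genes are a separate programme, switched on by interferon signalling or directly by IRF3 after nucleic acids are sensed in the cytosol.

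The 8 libraries held 13.05 to 17.6 M estimated counts, and the tested genes took 99.8% of them. Levels are in CPM, counts per 1 M after each library's total was multiplied by a scaling factor (TMM). They are not scaled for gene length, so they are compared only within a gene. Adjusted p-values are from edgeR's quasi-likelihood test with Benjamini-Hochberg adjustment over all tested genes, a gene was called at an adjusted p under 0.05, and errors of log2 values are standard errors. Of 23 colon epithelial markers 13 exceeded 1 CPM in some library: EPCAM, KRT8, KRT18, KRT19 and CDX2 were present throughout, while CDX1, CEACAM5, TFF3 and PHGR1 were at 0 in all 8. Of 15 blood and stromal markers 3 exceeded 1 CPM: the collagen gene COL1A1 had 53 to 75.2 CPM in all 8, VWF reached 1.76 CPM and HBA1 1.22 CPM, while PTPRC, CD14 and PECAM1 stayed under 0.31 CPM. The summed colon markers stood at 6837 and 6852 CPM with 4OHT against 4427 and 4135 CPM with ethanol in the Cre line, and at 3325 and 3533 CPM with 4OHT against 3702 and 3938 CPM with ethanol without Cre. The hormone-binding part of CreERT2 is taken from human ESR1, and ESR1 had 731 and 727 CPM with 4OHT against 1193 and 1133 CPM with ethanol in the Cre line, and 18.1 and 13.8 CPM with 4OHT against 18.6 and 18.4 CPM with ethanol in the line without Cre, so both Cre groups stood apart from both groups without Cre. Reads of the transgene and of the cell's own ESR1 cannot be told apart in that row. Mitochondrially encoded genes took 9.82% to 9.89% of the counts in the 2 Cre 4OHT libraries and 6.87% to 7.59% in the other 6. In bulk RNA, fewer cells of a type and less RNA per cell cannot be told apart.

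4OHT changed more genes in the Cre line than in the line without Cre, and most differences between the responses came from the Cre line. In the Cre line 4424 genes rose (26.4% of those tested) and 4605 fell (27.5%). In the line without Cre 1215 rose (7.26%) and 1077 fell (6.44%). The difference of responses was higher for 3141 genes (18.8%) and lower for 3744 (22.4%), of which 564 were higher and 1472 lower by at least 2-fold. The median log2 difference over all tested genes was -0.03. Calls were fewer at low levels: 3.03% higher and 6.72% lower among 1949 genes under 1 CPM, with a median standard error of 0.783, against 30.7% and 27.1% among 2121 genes at 100 CPM or more, with a median standard error of 0.0783.

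Of the 6885 genes with a called difference, 5105 (74.1%) had a called response in the Cre line alone, and 419 (6.09%) had one in the line without Cre alone. In 595 (8.64%) both responses were called with opposite signs. In 357 (5.19%) both had the same sign and the Cre response was larger, in 31 (0.45%) the response without Cre was larger, and in 378 (5.49%) neither response was called by itself. Among the 9029 genes called in the Cre line, 2941 (32.6%) had no called difference, so their Cre-line response was not shown to differ from the one without Cre. The count in the line without Cre depended on its 4OHT libraries: it was 773 in place of 2292 without replicate 1 and 1097 without replicate 2. With limma on log2(TPM + 1) the median gene shifted by -0.18 and 1280 genes were higher and 3821 lower, a split of 25.1% higher against 45.6% in edgeR. The same limma fit gave 36.9% higher against 49% for the Cre line and 72.6% against 53% for the line without Cre, where DESeq2 gave 39.2%. When all 40 HCT116 libraries shared 1 estimate of spread, 735 were higher and 1028 lower.

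**Figure D1:**
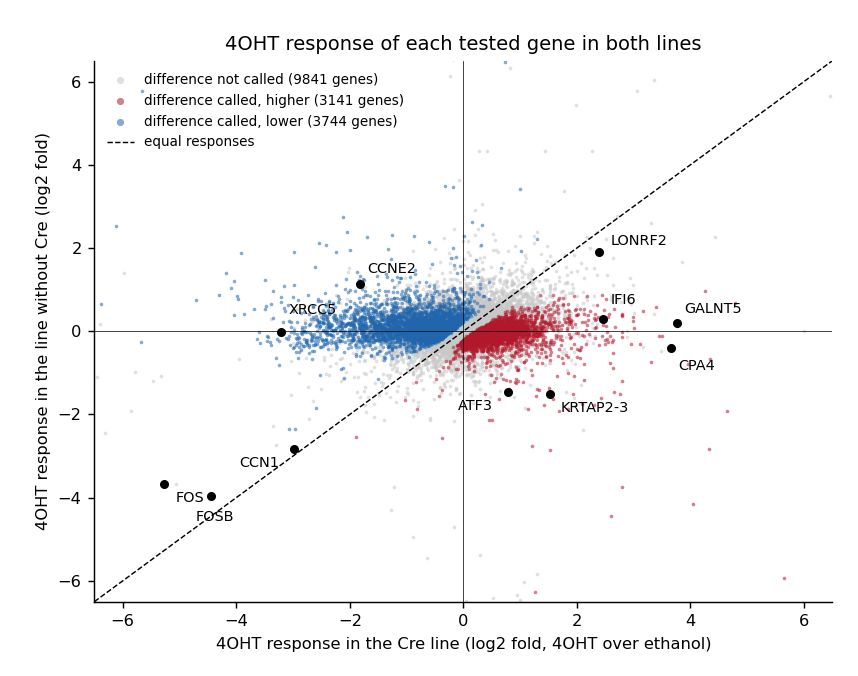
Each point is 1 tested gene, with its log2 4OHT response in the Cre line on the x axis and that in the line without Cre on the y axis. The dashed line marks equal responses. Most called genes spread along the x axis, with 3141 higher and 3744 lower, XRCC5 lies left of 0 on the x axis at -3.21 and near 0 on the y axis, and FOSB and CCN1 lie near the dashed line at the lower left. The 41 genes beyond 6.5 on either axis, 18 of them called, are not drawn.

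XRCC5 itself had 24.9 and 30.7 CPM with 4OHT against 256 and 258 CPM with ethanol in the Cre line. It had 244 and 236 CPM with 4OHT against 252 and 236 CPM with ethanol in the line without Cre. The 2 Cre 4OHT libraries stood apart from the other 6, and the log2 difference was -3.19 ± 0.10 (adjusted p = 2.44e-10). XRCC6, which encodes Ku70, had 468 and 486 CPM with 4OHT against 720.0 and 723 CPM with ethanol in the Cre line, and 685 and 711 CPM with 4OHT against 822 and 805 CPM with ethanol in the line without Cre. All 4 4OHT libraries were below the ethanol libraries of their line, and the log2 difference was -0.38 ± 0.07 (adjusted p = 0.000463). PRKDC, the catalytic subunit of DNA-PK, had 492 and 491 CPM with 4OHT against 819.6 and 829.6 CPM with ethanol in the Cre line, and 864 and 856 CPM with 4OHT against 925 and 878 CPM with ethanol in the line without Cre. The difference was -0.68 ± 0.07 (adjusted p = 2.63e-06). With all 40 HCT116 libraries in the fit the adjusted p was 0.328 for XRCC6 and 0.113 for PRKDC.

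XRCC5 lies at chr2:216109348-216206293 in GRCh38.p14. Among the 4 nearest tested genes on each side, 3 were called, all lower, beside 22.4% lower over all tested genes. FN1, the matrix protein fibronectin, had 6.74 and 7.72 CPM with 4OHT against 21.7 and 18.6 CPM with ethanol in the Cre line, and 19.3 and 16.6 CPM with 4OHT against 12.6 and 11.3 CPM with ethanol in the line without Cre. Its fall in the Cre line and its rise without Cre both passed the test, and the difference was -2.06 ± 0.18 (adjusted p = 8.72e-07). LINC01963, a long noncoding RNA gene and the first tested gene past the end of XRCC5, had 5.46 and 7.18 CPM with 4OHT against 14.1 and 14.9 CPM with ethanol in the Cre line, and 13.6 and 12.7 CPM with 4OHT against 8.83 and 7.24 CPM with ethanol in the line without Cre, with a difference of -1.90 ± 0.20 (adjusted p = 5.64e-06). ATIC, a purine synthesis enzyme, differed by -0.30 ± 0.08 (adjusted p = 0.0105), a call lost without Cre 4OHT replicate 2 or without 4OHT replicate 1 of the other line. MREG, PECR, SMARCAL1, RPL37A-DT and RPL37A were not called, with differences of 0.30 ± 0.13, -0.53 ± 0.25, 0.15 ± 0.10, -1.13 ± 0.99 and 0.28 ± 0.12 on the log2 scale. PECR was called at -0.83 without ethanol replicate 2 of the line without Cre (adjusted p = 0.00629), and RPL37A at 0.46 without ethanol replicate 1 of that line (adjusted p = 3.48e-05). ATIC overlaps FN1 in RefSeq, and MREG overlaps PECR, so counts of these pairs may not be fully separate.

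The 12 largest positive differences by the naming rule ran from 2.72 for IFI27 to 4.11 for KRTAP3-1. The rule took called genes with a symbol and a mean of at least 5 CPM. Both responses of the Cre line, from libraries of the same number, also had to lie beyond both responses of the other line. That filter favours separated libraries, so the separation given for genes named by it is in part a product of the selection. KRTAP3-1, a hair keratin-associated protein, had 76 and 75.4 CPM with 4OHT against 2.38 and 3.09 CPM with ethanol in the Cre line, and 1.1 and 1.53 CPM with 4OHT against 0.847 and 0.771 CPM with ethanol in the line without Cre. The Cre 4OHT libraries did not overlap the other 6, and the log2 difference was 4.11 ± 0.40 (adjusted p = 2.8e-06). GALNT5, an enzyme that starts O-linked glycosylation, had 237 and 236 CPM with 4OHT against 17.3 and 17.7 CPM with ethanol in the Cre line, and 28.1 and 24.5 CPM with 4OHT against 23.8 and 22.3 CPM with ethanol in the line without Cre, a difference of 3.57 ± 0.11 (adjusted p = 2.33e-10). KLK6, a secreted kallikrein protease, had 582 and 560.2 CPM with 4OHT against 72.6 and 69.4 CPM with ethanol in the Cre line, and 43.3 and 41.8 CPM with 4OHT against 39.5 and 40.8 CPM with ethanol in the line without Cre, a difference of 2.92 ± 0.08 (adjusted p = 1.66e-10). KLK5, another kallikrein, differed by 2.81 ± 0.19 (adjusted p = 8.77e-08), KRT80, a type II keratin, by 2.80 ± 0.25 (adjusted p = 1.63e-06), and CEACAM1, a cell adhesion molecule, by 2.93 ± 0.22 (adjusted p = 2.93e-07). In all these genes both Cre 4OHT libraries were above the other 6.

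CPA4 and KRTAP2-3 are 2 of these 12 genes in which a fall without Cre passed the test as well as the rise with it. CPA4, a carboxypeptidase, had 528 and 499 CPM with 4OHT against 39.9 and 41.6 CPM with ethanol in the Cre line, and 85.6 and 84 CPM with 4OHT against 110.2 and 115 CPM with ethanol in the line without Cre, a difference of 4.06 ± 0.08 (adjusted p = 4.4e-12). KRTAP2-3, whose near-identical copy makes its count uncertain, had 83.4 and 86.5 CPM with 4OHT against 30.3 and 28.8 CPM with ethanol in the Cre line, and 5.68 and 8.16 CPM with 4OHT against 19.1 and 20.5 CPM with ethanol in the line without Cre, a difference of 3.04 ± 0.16 (adjusted p = 8.47e-09). In both the Cre 4OHT pair lay above the other 6 libraries.

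The 12 largest negative differences by the same rule, XRCC5 among them, ran from -5.41 for FAM72C to -3.06 for SERPINA5. WDR76, a chromatin-binding WD40 protein, had 5.82 and 4.94 CPM with 4OHT against 39.2 and 39.3 CPM with ethanol in the Cre line, and 45.6 and 40.5 CPM with 4OHT against 34.2 and 29.1 CPM with ethanol in the line without Cre, a difference of -3.30 ± 0.15 (adjusted p = 3.92e-09). ZNF367, a zinc finger protein, had 3.97 and 3.63 CPM with 4OHT against 27.8 and 30.1 CPM with ethanol in the Cre line, and 33.6 and 34.6 CPM with 4OHT against 30 and 28.8 CPM with ethanol in the line without Cre, a difference of -3.14 ± 0.13 (adjusted p = 1.96e-09). NEIL3, a DNA glycosylase used at crosslinked forks, had 1.63 and 1.62 CPM with 4OHT against 14.2 and 16.9 CPM with ethanol in the Cre line, and 16.1 and 15.8 CPM with 4OHT against 17.6 and 15.8 CPM with ethanol in the line without Cre, a difference of -3.18 ± 0.20 (adjusted p = 6.14e-08). All 3 were lowest in the Cre 4OHT libraries, with no overlap. PEG10, an imprinted gene derived from a retrotransposon, differed by -3.40 ± 0.18 (adjusted p = 8.89e-09), the homeobox genes LHX2 and DMBX1 by -3.13 ± 0.22 and -4.28 ± 0.37, and HPCAL4, a neuronal calcium sensor, by -3.31 ± 0.20. FAM72C had the largest negative difference, -5.41 ± 0.45 (adjusted p = 7.66e-07), but it has near-identical copies, and its copies FAM72B and FAM72D differed by -2.01 ± 0.20 and -1.49 ± 0.18 while FAM72A was not called at -0.35 ± 0.23, though it was called, at -0.67, without Cre 4OHT replicate 2. FAM156B also has a near-identical copy, and its ethanol libraries in the Cre line read 4.93 and 25.5 CPM.

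**Figure D2:**
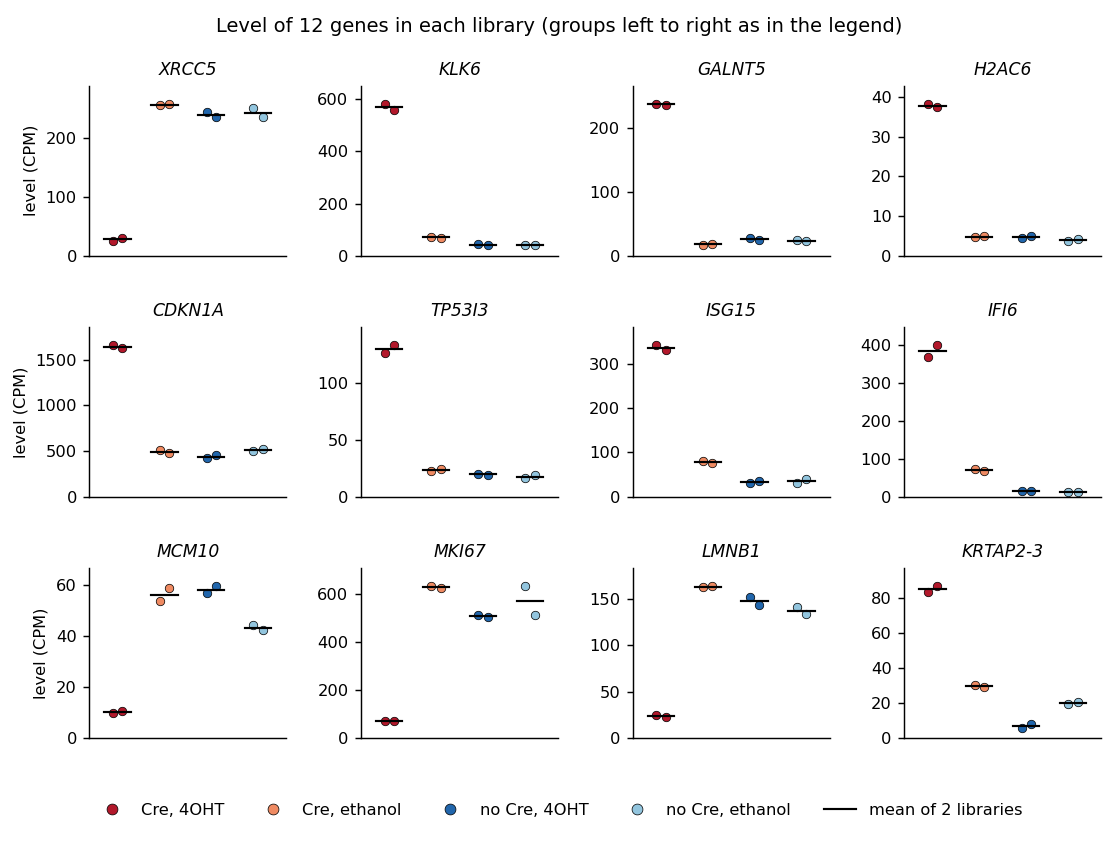
Each point is the level of a gene in 1 library, in CPM on a linear axis from 0, with the mean of each pair as a bar and the groups left to right as Cre with 4OHT, Cre with ethanol, no Cre with 4OHT and no Cre with ethanol. The Cre 4OHT pair stands apart from the other 6 libraries in every panel, below them in XRCC5, MCM10, MKI67 and LMNB1 and above them in the other 8.

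Genes of DNA replication fell as a block in the Cre line. All 47 tested members of the replication and E2F target list were called lower and 0 higher, against 22.4% lower among all tested genes, and their median log2 difference was -2.09 against -0.03 for all genes. Their summed level was 1579 and 1596 CPM with 4OHT against 5239 and 5076 CPM with ethanol in the Cre line, and 4863 and 4941 CPM with 4OHT against 4435 and 4627 CPM with ethanol in the line without Cre. In the Cre line's own response 46 fell and 0 rose, beside 27.5% and 26.4% over all tested genes. In the line without Cre 17 of the 47 rose with 4OHT and 0 fell, beside 7.26% and 6.44%. Part of the difference thus came from that line. MCM10, a replication factor, had 9.58 and 10.7 CPM with 4OHT against 53.5 and 58.6 CPM with ethanol in the Cre line, and 56.6 and 59.4 CPM with 4OHT against 44.3 and 42.1 CPM with ethanol in the line without Cre, a difference of -2.89 ± 0.12 (adjusted p = 1.35e-09). CCNE2, cyclin E2, had 6.17 and 6.02 CPM with 4OHT against 20.6 and 22.6 CPM with ethanol in the Cre line, and 22.9 and 22.5 CPM with 4OHT against 10.5 and 10.2 CPM with ethanol in the line without Cre. It fell with Cre, rose without, and differed by -2.95 ± 0.14 (adjusted p = 4.66e-09). POLE2, a subunit of DNA polymerase epsilon, differed by -2.93 ± 0.23 (adjusted p = 4.09e-07), and CLSPN, the fork protein claspin, by -2.86 ± 0.14 (adjusted p = 5.61e-09). Both Cre 4OHT libraries were below the other 6 for all 4 genes. PCNA, the polymerase clamp, had the smallest difference of the list, -0.36 ± 0.07 (adjusted p = 0.00104), and its Cre 4OHT libraries overlapped the no-Cre ethanol libraries. It was named after its values were seen.

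Genes of mitosis fell in the Cre line as well. All 41 tested members of the mitosis and G2/M list were called lower, beside 22.4% over all tested genes. The median log2 difference was -2.32. Here the line without Cre also moved down, with 26 of 41 members called lower in its own response, beside 6.44% over all tested genes. Their summed level was 833 and 871 CPM with 4OHT against 4499 and 4516 CPM with ethanol in the Cre line, and 3900.0 and 3912 CPM with 4OHT against 4779 and 4574 CPM with ethanol in the line without Cre. MKI67, the proliferation marker Ki-67, had 71.3 and 72.3 CPM with 4OHT against 633 and 626 CPM with ethanol in the Cre line, and 515 and 506 CPM with 4OHT against 633 and 513 CPM with ethanol in the line without Cre, a difference of -2.97 ± 0.11 (adjusted p = 8.19e-10). ANLN, the cytokinesis scaffold anillin, had 20.3 and 21.9 CPM with 4OHT against 197 and 202 CPM with ethanol in the Cre line, and 183 and 175 CPM with 4OHT against 218 and 199 CPM with ethanol in the line without Cre, a difference of -3.02 ± 0.09 (adjusted p = 1.88e-10). KIF11, the spindle motor Eg5, differed by -2.82 ± 0.17 (adjusted p = 2.58e-08) and ASPM, a spindle pole protein, by -2.80 ± 0.13 (adjusted p = 5.24e-09). For all 4 genes the Cre 4OHT libraries did not overlap the other 6.

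The promoters of these genes hold 2 short motifs that are textbook elements of the 2 programmes. They are shown from the first start that RefSeq lists for each gene in GRCh38.p14, on the gene's strand and 30 bases to each side of a match, with motif letters in capitals. E2F sites were searched as TTTCCCGC or TTTGGCGC and cell cycle homology regions as TTTGAA, on both strands, in the 250 bases before and 50 after the start. The first 3 hold an E2F site and the next 4 a cell cycle homology region:
POLE2 (chr14:49688182-49688249, - strand): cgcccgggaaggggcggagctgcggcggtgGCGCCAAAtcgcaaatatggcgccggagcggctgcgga
CLSPN (chr1:35769946-35770013, - strand): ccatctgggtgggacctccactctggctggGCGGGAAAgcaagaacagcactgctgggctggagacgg
ZNF367 (chr9:96418354-96418421, - strand): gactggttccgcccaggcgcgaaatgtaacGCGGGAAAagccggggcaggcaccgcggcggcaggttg
ANLN (chr7:36389812-36389877, + strand): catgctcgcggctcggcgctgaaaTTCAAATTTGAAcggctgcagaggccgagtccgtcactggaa
MKI67 (chr10:128126417-128126482, - strand): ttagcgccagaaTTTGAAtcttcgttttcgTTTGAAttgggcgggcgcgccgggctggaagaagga
KIF11 (chr10:92593072-92593137, + strand): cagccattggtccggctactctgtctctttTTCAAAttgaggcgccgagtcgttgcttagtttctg
NEIL3 (chr4:177309820-177309885, + strand): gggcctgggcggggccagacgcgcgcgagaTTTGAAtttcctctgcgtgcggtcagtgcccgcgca

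In the replication list 20 of 42 genes with a promoter in the table held the E2F letters (47.6%), against 2.31% of all 27305 genes of that table. In the mitosis list 24 of 35 held the cell cycle homology letters (68.6%), against 15.4% of all genes of the table, and 1 of 35 held the E2F letters. The match at the centre of each window began 20 to 29 bases before the start for the cell cycle letters and 5 to 21 bases before it for the E2F letters. The ANLN and MKI67 windows hold a second match further from the start. A match is a run of letters and not a shown binding site. The replication list was built to hold E2F targets and the mitosis list to hold G2/M genes. These shares thus follow in part from the choice of lists and are no result of these data. The shares over the table cover its genes whether tested here or not. Only 68.3% of tested genes matched the promoter table, so a comparison of motif shares between called higher, called lower and all tested genes is void.

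Among repair genes, 27 of 33 members of the homologous recombination and Fanconi list were called lower and 0 higher, beside 22.4% lower and 18.8% higher over all tested genes, with a median difference of -1.82. EXO1, the nuclease that resects DNA ends, had 5.6 and 5.79 CPM with 4OHT against 35 and 35.4 CPM with ethanol in the Cre line, and 33 and 31.8 CPM with 4OHT against 27.3 and 25.5 CPM with ethanol in the line without Cre, a difference of -2.92 ± 0.12 (adjusted p = 1.35e-09). The helicases BRIP1 and BLM and the BRCA1 partner BARD1 differed by -2.79 ± 0.13, -2.46 ± 0.17 and -2.55 ± 0.17, each called and each with both Cre 4OHT libraries lowest. Of 18 checkpoint genes 11 (beside the same 22.4%) were lower and 0 higher, among them the fork protein TIMELESS at -2.09 ± 0.09 and the kinases WEE1 at -1.89 ± 0.10 and CHEK1 at -1.68 ± 0.12. Of 26 end joining genes, XRCC5 included, 13 were lower and 3 higher, beside the same 22.4% and 18.8%, with a median of -0.36. Under limma on log2(TPM + 1) the counts were 12 and 0. POLQ, the polymerase of theta-mediated end joining, had 6.38 and 6.41 CPM with 4OHT against 26.6 and 26.1 CPM with ethanol in the Cre line, and 31.4 and 32.9 CPM with 4OHT against 30.5 and 26 CPM with ethanol in the line without Cre, a difference of -2.22 ± 0.14 (adjusted p = 4.69e-08). Only the Cre 4OHT pair was low. XRCC1, the scaffold of single-strand break repair, differed by -0.98 ± 0.11 and RIF1, which shields ends from resection, by -0.81 ± 0.10. LIG4, the ligase of classical end joining, was not called at 0.24 ± 0.19.

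Of 19 telomere maintenance genes 6 were lower and 4 higher, near the 22.4% and 18.8% over all tested genes, and the list median of 0.09 was -0.19 under limma on log2(TPM + 1) and -0.000137 without ethanol replicate 2 of the line without Cre. TERT, the telomerase catalytic subunit, had 1.14 and 2.39 CPM with 4OHT against 10.2 and 8.6 CPM with ethanol in the Cre line, and 12.5 and 14 CPM with 4OHT against 11.1 and 13.6 CPM with ethanol in the line without Cre, a difference of -2.53 ± 0.30 (adjusted p = 1.84e-05). Its Cre 4OHT pair was below the other 6. POT1 and RTEL1, which protect and unwind telomeric DNA, differed by -1.23 ± 0.15 and -0.87 ± 0.11, while the shelterin member TERF2IP was higher by 0.87 ± 0.12. Of 22 retroelement silencing genes 8 were lower and 2 higher, beside the same 22.4% and 18.8%, with a median of -0.15. Under limma 12 were lower, with a median of -0.43. UHRF1, which brings the maintenance methyltransferase to replicated DNA, had 53.4 and 53 CPM with 4OHT against 197 and 193 CPM with ethanol in the Cre line, and 169 and 180.4 CPM with 4OHT against 135 and 156 CPM with ethanol in the line without Cre, a difference of -2.14 ± 0.10 (adjusted p = 2.81e-09). DNMT1, that methyltransferase, had 127 and 122 CPM with 4OHT against 351 and 337 CPM with ethanol in the Cre line, and 292 and 302 CPM with 4OHT against 295 and 305 CPM with ethanol in the line without Cre, a difference of -1.46 ± 0.07 (adjusted p = 5.61e-09). For UHRF1 and DNMT1 alike the Cre 4OHT pair lay apart at the bottom. The 2 higher members of the list, named after their values were seen, were MORC2 at 0.84 ± 0.10 and ADAR at 0.31 ± 0.06.

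Targets of p53 rose in the Cre line. Of 52 tested members 47 were called higher against 18.8% of all tested genes, 2 were lower, and the median log2 difference was 1.06. Their summed level was 8792 and 8782 CPM with 4OHT against 4515 and 4562 CPM with ethanol in the Cre line, and 4444 and 4517 CPM with 4OHT against 4859 and 4927 CPM with ethanol in the line without Cre. In the line without Cre 2 members rose and 13 fell, beside 7.26% and 6.44% over all tested genes. CDKN1A, the cyclin-dependent kinase inhibitor p21, had 1659.7 and 1625 CPM with 4OHT against 508 and 482 CPM with ethanol in the Cre line, and 420.1 and 459 CPM with 4OHT against 499 and 527 CPM with ethanol in the line without Cre, a difference of 1.95 ± 0.08 (adjusted p = 1.35e-09). MDM2, the ubiquitin ligase that feeds back on p53, had 529.7 and 517 CPM with 4OHT against 195 and 218 CPM with ethanol in the Cre line, and 184 and 181 CPM with 4OHT against 204 and 182 CPM with ethanol in the line without Cre, a difference of 1.42 ± 0.09 (adjusted p = 5.29e-08). Both stood highest in the Cre 4OHT pair, with no overlap, and both were picked as familiar members and not by the rule for naming.

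TP53I3, a quinone oxidoreductase, had 127 and 134 CPM with 4OHT against 22.9 and 24.5 CPM with ethanol in the Cre line, and 20.3 and 19.2 CPM with 4OHT against 16.5 and 19.2 CPM with ethanol in the line without Cre, a difference of 2.30 ± 0.12 (adjusted p = 1.27e-08). GDF15, a secreted stress factor of the TGF-beta family, had 930.5 and 937 CPM with 4OHT against 355 and 325 CPM with ethanol in the Cre line, and 257 and 285 CPM with 4OHT against 376 and 438 CPM with ethanol in the line without Cre. It rose with Cre, fell without, and differed by 2.04 ± 0.10 (adjusted p = 7.74e-09). ABCA12, a lipid transporter, differed by 2.86 ± 0.50 (adjusted p = 0.000514) at under 10 CPM. The 2 lower members were KITLG, the ligand of the KIT receptor, at -1.51 ± 0.11, and TNFRSF6B, a decoy receptor, at -0.59 ± 0.09. In these genes the 2 Cre 4OHT libraries lay outside the range of the other 6, higher for the first 3 and lower for KITLG and TNFRSF6B.

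Of 28 cell death genes 13 were higher and 2 lower, beside 18.8% and 22.4% over all tested genes, with a median of 0.24. Under limma on log2(TPM + 1) 7 were higher, with a median of 0.0089. BIK, a pro-apoptotic BH3-only protein, had 56.5 and 58.4 CPM with 4OHT against 15.4 and 13.6 CPM with ethanol in the Cre line, and 14.6 and 12.2 CPM with 4OHT against 12.8 and 15.2 CPM with ethanol in the line without Cre, a difference of 2.03 ± 0.15 (adjusted p = 2.71e-07). PMAIP1, the BH3-only protein NOXA and also in the p53 list, differed by 1.76 ± 0.10 (adjusted p = 2.6e-08). BCL2, the survival protein, had 0.497 and 0.618 CPM with 4OHT against 3.06 and 3.03 CPM with ethanol in the Cre line, and 2.75 and 2.74 CPM with 4OHT against 1.45 and 1.46 CPM with ethanol in the line without Cre, a difference of -3.35 ± 0.40 (adjusted p = 2.14e-05) on low levels. BIK was highest and BCL2 lowest in the Cre 4OHT pair, apart from the other 6 libraries. BMF, a further BH3-only gene, was the other lower member at -1.62 ± 0.55, under 2.2 CPM, with the call lost in DESeq2, without replicate 1 of either Cre group, and without either 4OHT replicate or ethanol replicate 1 of the line without Cre. Of 14 senescence-linked genes 2 were higher, CDKN1A among them, and 8 lower, beside the same 18.8% and 22.4%, with a median of -0.99. LMNB1, lamin B1, had 24.2 and 22.7 CPM with 4OHT against 163 and 163 CPM with ethanol in the Cre line, and 152 and 143 CPM with 4OHT against 142 and 133 CPM with ethanol in the line without Cre, a difference of -2.90 ± 0.09 (adjusted p = 1.87e-10), with the Cre 4OHT pair apart. The chromatin protein HMGB2 and the inhibitor of CDK4 and CDK6, CDKN2C, differed by -2.61 ± 0.08 and -3.02 ± 0.28. The list holds genes known to rise and genes known to fall in senescence, so its median has no direction of its own.

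**Figure D3:**
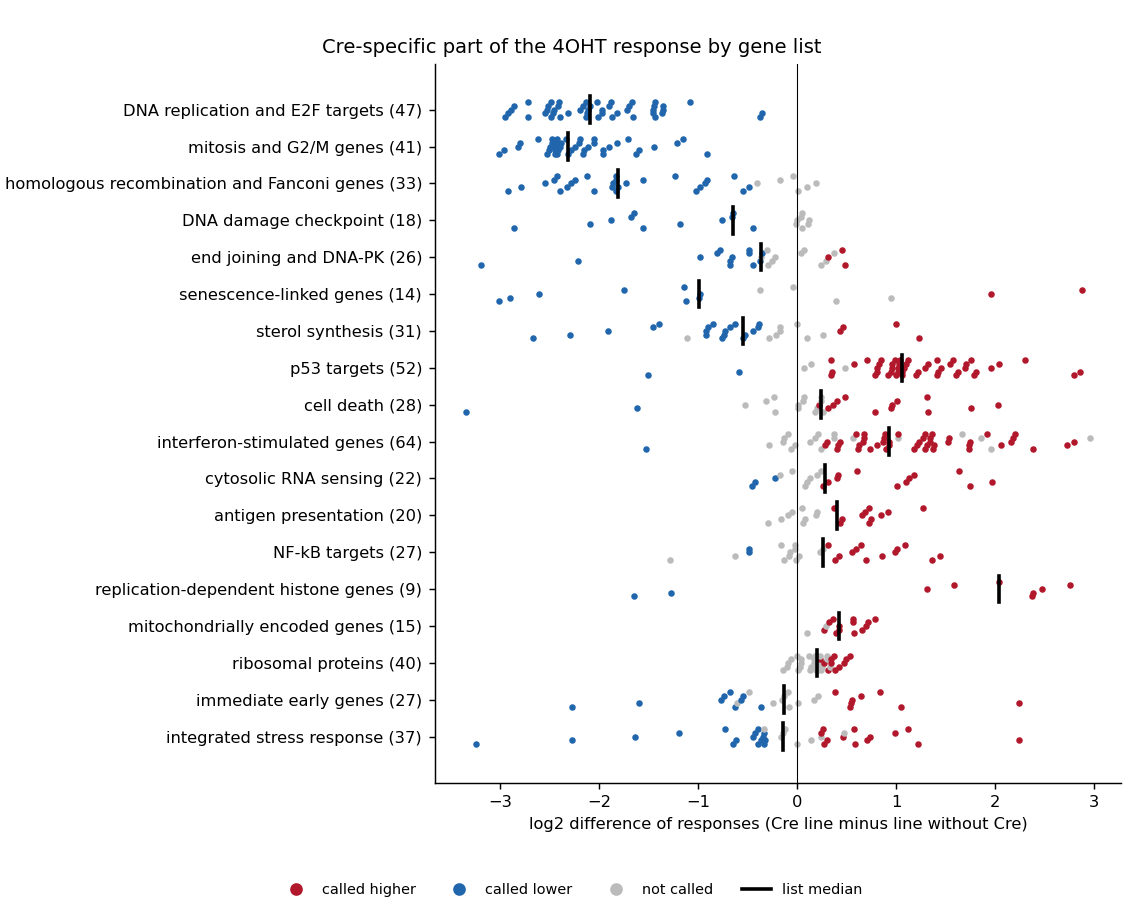
Each point is the log2 difference of responses (x axis) of 1 tested member of a gene list, with the list's tested size in parentheses and a bar at its median. All points of the replication and mitosis lists lie left of 0 and are called lower, and most p53 and interferon-stimulated members lie right of 0, while the immediate early list straddles it.

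Interferon-stimulated genes rose in the Cre line on top of a higher starting level there. Of 64 tested members 45 had a called higher difference and 1 a lower one, beside 18.8% and 22.4% over all tested genes. Their median log2 difference was 0.93. In the Cre line's own response 61 rose and 0 fell, beside 26.4% and 27.5% over all tested genes, with a median of 1.22. In the line without Cre 20 rose and 0 fell, beside 7.26% and 6.44%, with a median of 0.28. Their summed level was 7199 and 7222 CPM with 4OHT against 3425 and 3350.0 CPM with ethanol in the Cre line, and 2493 and 2493 CPM with 4OHT against 2213 and 2262 CPM with ethanol in the line without Cre. With ethanol alone the Cre line was already above the line without Cre in 61 of 64 members, by a median of 1.00 on the log2 scale. The lowest summed level in any Cre library was above the highest in any library without Cre.

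IFI6, a mitochondrial and endoplasmic reticulum protein that limits viral replication, had 369 and 400.4 CPM with 4OHT against 72.5 and 67 CPM with ethanol in the Cre line, and 16.3 and 15 CPM with 4OHT against 12.5 and 12.9 CPM with ethanol in the line without Cre. The 4 groups did not overlap, and the difference was 2.16 ± 0.12 (adjusted p = 2.08e-08). ISG15, a ubiquitin-like modifier, had 341 and 330.2 CPM with 4OHT against 80.9 and 76.8 CPM with ethanol in the Cre line, and 30.6 and 36.4 CPM with 4OHT against 31.3 and 40.5 CPM with ethanol in the line without Cre. Its 2 groups without Cre overlapped, and the difference was 2.18 ± 0.14 (adjusted p = 6.04e-08). IFIT1, which binds RNA with an unmethylated cap, had 156 and 159.5 CPM with 4OHT against 28.4 and 26.8 CPM with ethanol in the Cre line, and 8.18 and 7.52 CPM with 4OHT against 4.84 and 4.24 CPM with ethanol in the line without Cre, a difference of 1.74 ± 0.15 (adjusted p = 1.36e-06). IFIT1 rose in both lines, by 2.52 with Cre and 0.78 without. These 3 genes were picked as familiar members and not by the rule for naming.

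TRIM22, an antiviral E3 ligase that also counts in the p53 list, had 17.8 and 17.1 CPM with 4OHT against 2.5 and 2.54 CPM with ethanol in the Cre line, and 1.16 and 1.34 CPM with 4OHT against 1.21 and 1.31 CPM with ethanol in the line without Cre, a difference of 2.80 ± 0.31 (adjusted p = 9.54e-06). IFI27 differed by 2.72 ± 0.35 (adjusted p = 4.03e-05) and OASL, an OAS-like protein that assists RIG-I, by 2.20 ± 0.20 (adjusted p = 1.47e-06). OAS2, which makes the activator of RNase L, stayed under 4 CPM and differed by 2.38 ± 0.78 (adjusted p = 0.0264). The call on OAS2 was lost under DESeq2, without replicate 2 of either Cre group, and without either 4OHT replicate or ethanol replicate 1 of the line without Cre, with adjusted p-values up to 0.297. GBP2, a guanylate-binding protein, was the lower member, at -1.53 ± 0.55 (adjusted p = 0.0411) and under 3 CPM in all libraries, and its call was lost in DESeq2, in limma and in each fit that left out a library other than Cre 4OHT replicate 1. Interferon transcripts themselves were near 0: IFNB1 had 0 counts in all 8 libraries, where a count of 0 allows up to 0.230 CPM. IFNL1 had 4 and 8 counts with 4OHT against 4 and 0 with ethanol in the Cre line and 0 in all 4 libraries without Cre. IFNL3, whose counts may be shared with its copy IFNL2, had 10 and 7 counts with 4OHT against 1 and 0 with ethanol in the Cre line, and 2 and 0 with 4OHT against 0 and 0 without Cre. These counts were too few to be tested.

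The interferon response element was searched as GAAANNGAA on both strands of the same windows. The 3 members below are shown because they were described above and carry several copies close to the start, in capitals, with overlapping matches joined:
IFI27 (chr14:94110611-94110679, + strand): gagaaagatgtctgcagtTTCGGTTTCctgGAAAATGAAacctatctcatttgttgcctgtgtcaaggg
IFI6 (chr1:27672247-27672315, - strand): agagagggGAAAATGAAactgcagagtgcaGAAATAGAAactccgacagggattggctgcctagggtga
ISG15 (chr1:1013366-1013434, + strand): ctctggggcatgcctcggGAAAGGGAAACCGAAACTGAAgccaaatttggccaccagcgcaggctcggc

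The promoter table holds 50 of the 64 tested members, under the 80% needed, so no share with the letters is given for the list. In the windows shown, IFI27 and IFI6 held 2 matches each and ISG15 held 3.

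**Figure D4:**
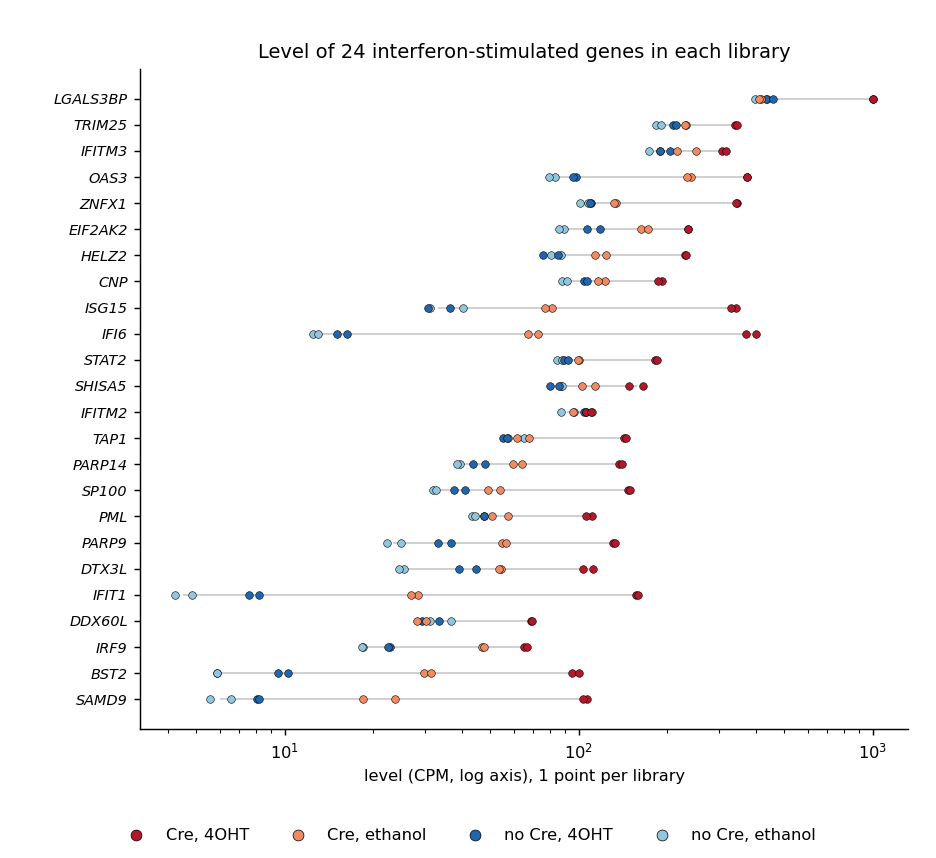
Points are the levels of 24 interferon-stimulated genes in each library, in CPM on a log axis, ordered by mean CPM (not scaled for length). For nearly every gene the Cre 4OHT libraries (dark red) are highest, the Cre ethanol libraries (light red) next, and the libraries without Cre (blue) lowest, as for IFI6 at 369 and 400.4 CPM, 72.5 and 67 CPM, 16.3 and 15 CPM and 12.5 and 12.9 CPM.

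Of 22 cytosolic RNA sensing genes 12 were higher and 3 lower, beside 18.8% and 22.4% over all tested genes, with a median of 0.28. Under limma on log2(TPM + 1) 7 were higher and 3 lower, with a median of 0.17. RIGI, the sensor of RNA with a triphosphate end, had 111 and 110.3 CPM with 4OHT against 29.8 and 29.4 CPM with ethanol in the Cre line, and 13.4 and 15.3 CPM with 4OHT against 10.9 and 13 CPM with ethanol in the line without Cre, a difference of 1.63 ± 0.13 (adjusted p = 6.17e-07). TLR3, the endosomal receptor for double-stranded RNA, had 20.8 and 23.6 CPM with 4OHT against 3.91 and 5.15 CPM with ethanol in the Cre line, and 3.85 and 3.51 CPM with 4OHT against 3.33 and 2.47 CPM with ethanol in the line without Cre, a difference of 1.97 ± 0.27 (adjusted p = 5.97e-05). The Cre 4OHT pair stood above all others for both. OAS1 differed by 1.75 ± 0.21, IFIH1, the sensor MDA5, by 1.13 ± 0.15, and LGALS3BP, a secreted galectin ligand, by 1.18 ± 0.07. Several of these sensors are themselves interferon-stimulated, and OAS1, OAS3, TRIM25, EIF2AK2 and LGALS3BP stand in both lists.

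Of 10 cytosolic DNA sensing genes 6 were lower and 1 higher, beside 22.4% and 18.8% over all tested genes. Their median was -0.44, or -0.67 under limma. ENPP1, which degrades the second messenger cGAMP, had 2.2 and 3.01 CPM with 4OHT against 15.1 and 14.5 CPM with ethanol in the Cre line, and 15.4 and 14 CPM with 4OHT against 13.1 and 10.1 CPM with ethanol in the line without Cre, a difference of -2.84 ± 0.22 (adjusted p = 4.34e-07). RNASEH2A, the catalytic subunit of RNase H2, had 10.7 and 10.6 CPM with 4OHT against 42.2 and 41.9 CPM with ethanol in the Cre line, and 39.9 and 40.7 CPM with 4OHT against 38.1 and 42.7 CPM with ethanol in the line without Cre, a difference of -1.98 ± 0.11 (adjusted p = 2.31e-08), and RNASEH2B, its partner, differed by -0.83 ± 0.15. STING1, the adaptor of the pathway, was not called at -0.16 ± 0.11. The other 3 lower genes were RNASEH2C at -0.39 ± 0.13, the nuclease gene MRE11 at -0.49 ± 0.12 and BANF1, a DNA-bridging chromatin protein, at -0.30 ± 0.10, and the higher one was DDX41, a helicase, at 0.36 ± 0.09. The calls on RNASEH2C and BANF1 were lost in DESeq2, without either 4OHT replicate or ethanol replicate 1 of the line without Cre, and without Cre 4OHT replicate 1. RNASEH2C also lost it without Cre ethanol replicate 2, and BANF1 without Cre ethanol replicate 1 or Cre 4OHT replicate 2. DDX41 was at -0.04 and not called under limma on log2(TPM + 1). Of these, ENPP1, RNASEH2A, RNASEH2B, RNASEH2C and BANF1 are known to limit sensing.

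Of 20 antigen presentation genes 11 were higher and 0 lower, beside 18.8% higher and 22.4% lower over all tested genes, with a median of 0.40. Under limma on log2(TPM + 1) 7 were higher and 2 lower, with a median of 0.15. TAP1, the peptide transporter, had 142 and 145 CPM with 4OHT against 67.9 and 61.6 CPM with ethanol in the Cre line, and 55 and 56.9 CPM with 4OHT against 57.2 and 65.1 CPM with ethanol in the line without Cre, a difference of 1.27 ± 0.10 (adjusted p = 4.67e-07). HLA-B and HLA-C, class I heavy chains whose related sequences can share reads, differed by 0.92 ± 0.08 and 0.74 ± 0.11. Of 10 tested interferon ligand and receptor genes 2 were higher and 4 lower, beside 18.8% and 22.4% over all tested genes. Their median of -0.03 was 0.0021 without Cre ethanol replicate 2 and -0.24 under limma. SOCS3, a feedback inhibitor of cytokine signalling, differed by -1.02 ± 0.13, and the receptor subunits IFNGR1, IFNGR2 and IFNAR2 by 0.62 ± 0.13, -0.55 ± 0.12 and -0.51 ± 0.11. Of 27 NF-kB targets 13 were higher and 2 lower, beside the same 18.8% and 22.4%, with a median of 0.26. Limma gave 7 and 3, with a median of 0.11. PLAU, the urokinase protease, had 208 and 209.6 CPM with 4OHT against 104 and 101 CPM with ethanol in the Cre line, and 127 and 141 CPM with 4OHT against 179.7 and 179 CPM with ethanol in the line without Cre, a difference of 1.45 ± 0.08 (adjusted p = 1.33e-08) to which its fall without Cre contributed. RELB, BIRC3 and CFLAR, an NF-kB subunit and 2 inhibitors of cell death, differed by 1.36 ± 0.18, 1.09 ± 0.19 and 1.01 ± 0.10. Of 14 tested cytokine genes 4 were higher and 0 lower, beside 18.8% and 22.4% over all tested genes. The list median of 0.45 was 0.15 without ethanol replicate 2 of the line without Cre, 0.25 without Cre ethanol replicate 2 and 0.09 under limma, which called 1 member lower. The 4 were GDF15, IL18 at 1.33 ± 0.09, CXCL16 at 1.09 ± 0.09 and TGFA at 0.77 ± 0.09.

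Most tested histone genes moved against the replication genes, but their summed level did not. Of 9 tested members of the histone list 7 were called higher and 2 lower, beside 18.8% and 22.4% over all tested genes. Their summed level was 809.7 and 834.7 CPM with 4OHT against 1304 and 1251 CPM with ethanol in the Cre line. Without Cre it was 1218 and 1232 CPM with 4OHT against 926.2 and 994.3 CPM with ethanol. A single member made up 74.1% of the sum in the Cre 4OHT group. The libraries were made from polyadenylated RNA, per the labels' protocols, whereas replication-dependent histone transcripts normally end without a poly-A tail, so these values describe the polyadenylated forms alone. H2AC6 had 38.2 and 37.4 CPM with 4OHT against 4.59 and 4.9 CPM with ethanol in the Cre line, and 4.39 and 4.85 CPM with 4OHT against 3.57 and 4.32 CPM with ethanol in the line without Cre, a difference of 2.75 ± 0.20 (adjusted p = 1.68e-07). H2BC5 had 29.2 and 33.6 CPM with 4OHT against 4.88 and 4.18 CPM with ethanol in the Cre line, and 4.58 and 4.78 CPM with 4OHT against 2.9 and 4.24 CPM with ethanol in the line without Cre, a difference of 2.37 ± 0.25 (adjusted p = 6.27e-06). For both the Cre 4OHT pair lay above the other 6 libraries. H2BC21 and H2AC18 differed by 2.47 ± 0.35 and 2.39 ± 0.29, and H2AC18 has a near-identical copy. H2AX, the variant phosphorylated at DNA breaks, was 1 of the 2 lower members, at -1.65 ± 0.09, and it is known to be made outside S phase as a polyadenylated transcript too.

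Of 31 tested sterol synthesis genes 19 were lower and 4 higher, beside 22.4% lower and 18.8% higher over all tested genes, with a median of -0.55. INSIG1, the sterol-responsive anchor of SREBP processing, had 11.8 and 12.5 CPM with 4OHT against 63.9 and 60.8 CPM with ethanol in the Cre line, and 122 and 115 CPM with 4OHT against 125 and 122 CPM with ethanol in the line without Cre, a difference of -2.30 ± 0.10 (adjusted p = 2.04e-09). ACAT2, the cytosolic thiolase, had 4.26 and 5.95 CPM with 4OHT against 27.6 and 28.5 CPM with ethanol in the Cre line, and 36.4 and 32.6 CPM with 4OHT against 30.1 and 29.9 CPM with ethanol in the line without Cre, a difference of -2.67 ± 0.15 (adjusted p = 2.43e-08). For INSIG1 the Cre line was also lower with ethanol than the line without Cre. STARD4, a sterol carrier, differed by -1.45 ± 0.11.

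Of 37 integrated stress response genes 13 were higher and 16 lower, beside 18.8% and 22.4% over all tested genes, with a median of -0.15. Under limma on log2(TPM + 1) 7 were higher and 18 lower, with a median of -0.33. PHGDH, the first enzyme of serine synthesis, had 26.3 and 26.2 CPM with 4OHT against 165 and 149 CPM with ethanol in the Cre line, and 104 and 121 CPM with 4OHT against 129.9 and 148 CPM with ethanol in the line without Cre, a difference of -2.27 ± 0.13 (adjusted p = 1.64e-08), with only the Cre 4OHT pair low. SLC7A11, the cystine transporter, differed by -1.64 ± 0.10 (adjusted p = 4.49e-08). ATF3, a stress-induced transcription factor, had 59.4 and 54.9 CPM with 4OHT against 33.3 and 32.8 CPM with ethanol in the Cre line, and 15.9 and 20.5 CPM with 4OHT against 49.8 and 49.2 CPM with ethanol in the line without Cre, a difference of 2.24 ± 0.13 (adjusted p = 2.9e-08). Of 22 unfolded protein response genes 5 were higher and 3 lower, beside 18.8% and 22.4% over all tested genes. Their median of 0.11 was -0.10 under limma on log2(TPM + 1). Of 22 NRF2 targets 5 were higher and 6 lower, and of 32 hypoxia and glycolysis genes 7 and 7, both near the 18.8% higher and 22.4% lower over all tested genes. Under limma these counts were 2 and 10, and 3 and 9. NQO1, a quinone reductase, differed by -1.09 ± 0.06 (adjusted p = 2.79e-08), and NDRG1, a hypoxia-responsive gene, by 1.38 ± 0.07 (adjusted p = 5.61e-09).

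Of 15 mitochondrially encoded genes 13 were higher and 0 lower, beside 18.8% and 22.4% over all tested genes, with a median of 0.43. Limma on log2(TPM + 1) called 7 higher and 0 lower. MT-ND3, a subunit of complex I, had 1903 and 1671 CPM with 4OHT against 1249.5 and 1184 CPM with ethanol in the Cre line, and 1213 and 1101 CPM with 4OHT against 1319 and 1397 CPM with ethanol in the line without Cre, a difference of 0.78 ± 0.09 (adjusted p = 2.07e-05), and MT-CYB, of complex III, differed by 0.71 ± 0.08 (adjusted p = 1.02e-05). The Cre 4OHT pair was highest for both. Of 40 ribosomal protein genes 11 were higher and 0 lower, a count that ran between 6 and 31 when 1 library was left out, the highest without ethanol replicate 1 of the line without Cre. Without ethanol replicate 2 of that line 8 were higher and 2 lower, under glmTreat 1 was higher, and under limma on log2(TPM + 1) 0 were higher and 3 lower, with a median of 0.04 against 0.20 in edgeR. The edgeR counts of 11 and 0 stand beside 18.8% higher and 22.4% lower over all tested genes. RPLP1 differed by 0.53 ± 0.11 (adjusted p = 0.00128), with a called fall without Cre of -0.35 and an uncalled 0.18 with it. Of 36 ribosome biogenesis genes 13 were higher and 7 lower, beside 18.8% and 22.4% over all tested genes. Their median of 0.08 was -0.15 under limma on log2(TPM + 1). RRP12, a processing factor of both subunits, differed by 0.93 ± 0.08 (adjusted p = 1.13e-06).

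Of 12 genes of MYC and the MAX network 7 were higher and 3 lower, beside 18.8% and 22.4% over all tested genes. Their median of 0.31 was -0.01 under limma on log2(TPM + 1). MXD1, a repressor that competes with MYC for MAX, differed by 1.73 ± 0.16 (adjusted p = 1.55e-06), and MYCL by -1.14 ± 0.16 (adjusted p = 6.14e-05). Because 4OHT is itself a ligand of the estrogen receptor, its genes and targets were listed. Of 10 tested 3 were higher and 4 lower, beside the same 18.8% and 22.4%. In the line without Cre 2 of them rose and 2 fell, beside 7.26% and 6.44% over all tested genes. ESR1, whose row may hold transgene reads as given above, differed by -0.46 ± 0.13 (adjusted p = 0.0112), a call lost without 4OHT replicate 1 of the line without Cre. CCND1, cyclin D1, had 1889 and 1879 CPM with 4OHT against 792 and 796 CPM with ethanol in the Cre line, and 699 and 719 CPM with 4OHT against 688 and 659 CPM with ethanol in the line without Cre, a difference of 1.17 ± 0.06 (adjusted p = 1.51e-08). Of 10 aryl hydrocarbon receptor targets 1 was higher and 5 lower, and of 22 polymerase III and SRP genes 7 were higher and 1 lower. Both stand beside the same 18.8% and 22.4%. Under limma the polymerase III and SRP counts were 2 and 2. The estrogen receptor list had a median of -0.25, or -0.47 under limma, and the aryl hydrocarbon receptor list one of -0.38, or -0.65 without ethanol replicate 2 of the line without Cre.

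Of 13 tested colon epithelial markers 7 were higher and 3 lower, beside 18.8% and 22.4% over all tested genes. Their median was 0.72, or 0.34 under limma on log2(TPM + 1). CDH1, E-cadherin, had 172 and 159 CPM with 4OHT against 66.2 and 61.8 CPM with ethanol in the Cre line, and 90 and 90.9 CPM with 4OHT against 85 and 81.4 CPM with ethanol in the line without Cre, a difference of 1.25 ± 0.09 (adjusted p = 1.28e-07). KLK10, a further kallikrein, differed by 1.65 ± 0.11, and VIL1, the microvillus protein villin, differed by -1.46 ± 0.36 at under 6 CPM. The intestinal factor CDX2 was not called at -0.11 ± 0.11. All 4 tested HEK293 markers were lower, and of 4 tested blood and stromal markers 2 were lower and 0 higher. These counts stand beside the same 22.4% lower and 18.8% higher. Of 19 genes often used as references 3 were higher and 6 lower, beside 18.8% and 22.4% over all tested genes. Their median was -0.08. TUBB differed by -1.06 ± 0.07, GUSB by -0.99 ± 0.11 and ACTB by -0.64 ± 0.07.

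Most immediate early genes fell in both lines, and their differences went both ways. Of 27 tested members 23 fell and 3 rose in the Cre line, beside 27.5% and 26.4% over all tested genes. In the line without Cre 25 fell and 0 rose, beside 6.44% and 7.26%. The median response was -1.14 in each line. Of the differences, 8 were higher and 9 lower, beside 18.8% and 22.4% over all tested genes. They ran from -2.28 to 2.24. Their median was -0.13, or -0.42 under limma on log2(TPM + 1). FOSB, an AP-1 subunit, had 10.2 and 12.1 CPM with 4OHT against 244 and 244 CPM with ethanol in the Cre line, and 8.06 and 32 CPM with 4OHT against 313 and 307 CPM with ethanol in the line without Cre. Its difference of -0.49 ± 0.48 was not called (adjusted p = 0.45), and its sign turned on 1 library: it was 0.80 and called without 4OHT replicate 2 of the line without Cre, and -1.17 and called without replicate 1. CCN1, a secreted matrix protein, had 18.7 and 18.8 CPM with 4OHT against 151 and 146 CPM with ethanol in the Cre line, and 16.5 and 26.2 CPM with 4OHT against 147 and 156 CPM with ethanol in the line without Cre, a difference of -0.15 ± 0.19 that was not called and that likewise turned to 0.21, not called, without that replicate 2, and to -0.45 and called without replicate 1.

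FOS, the partner subunit, had 7.87 and 9.34 CPM with 4OHT against 335 and 326 CPM with ethanol in the Cre line, and 15.4 and 43 CPM with 4OHT against 376 and 361 CPM with ethanol in the line without Cre. Its 2 no-Cre 4OHT libraries were far apart, and its difference of -1.60 ± 0.42 (adjusted p = 0.0084) was not called in DESeq2 (adjusted p = 0.0596) or without Cre 4OHT replicate 1. FOSB, CCN1, EGR2 and LONRF2 were named by rule, as large responses called in both lines with the same sign and no called difference. EGR2, a zinc finger factor, fell by 2.72 with Cre and 2.11 without, and LONRF2, a RING finger protein, rose by 2.40 with Cre and 1.91 without. Over all genes 616 were called with the same sign in both lines without a called difference, 361 up and 255 down.

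Called differences among the early genes included KLF2, JUN, ATF3 and MYC. KLF2, a Krüppel-like factor, had 5.53 and 7.41 CPM with 4OHT against 51.2 and 46.2 CPM with ethanol in the Cre line, and 24.8 and 26.8 CPM with 4OHT against 41.7 and 38.6 CPM with ethanol in the line without Cre, a difference of -2.28 ± 0.15 (adjusted p = 1.08e-07). JUN, the AP-1 subunit, had 101 and 101 CPM with 4OHT against 186 and 171 CPM with ethanol in the Cre line, and 41.9 and 51.5 CPM with 4OHT against 161 and 180.0 CPM with ethanol in the line without Cre. It fell in both lines, less with Cre, and differed by 1.05 ± 0.12 (adjusted p = 1.15e-05). ATF3, described above, rose by 0.79 with Cre and fell by 1.45 without. MYC, picked after its values were seen, had 546 and 547 CPM with 4OHT against 437 and 416 CPM with ethanol in the Cre line, and 467 and 459.8 CPM with 4OHT against 532 and 528 CPM with ethanol in the line without Cre, a difference of 0.55 ± 0.07 (adjusted p = 1.8e-05).

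**Figure D5:**
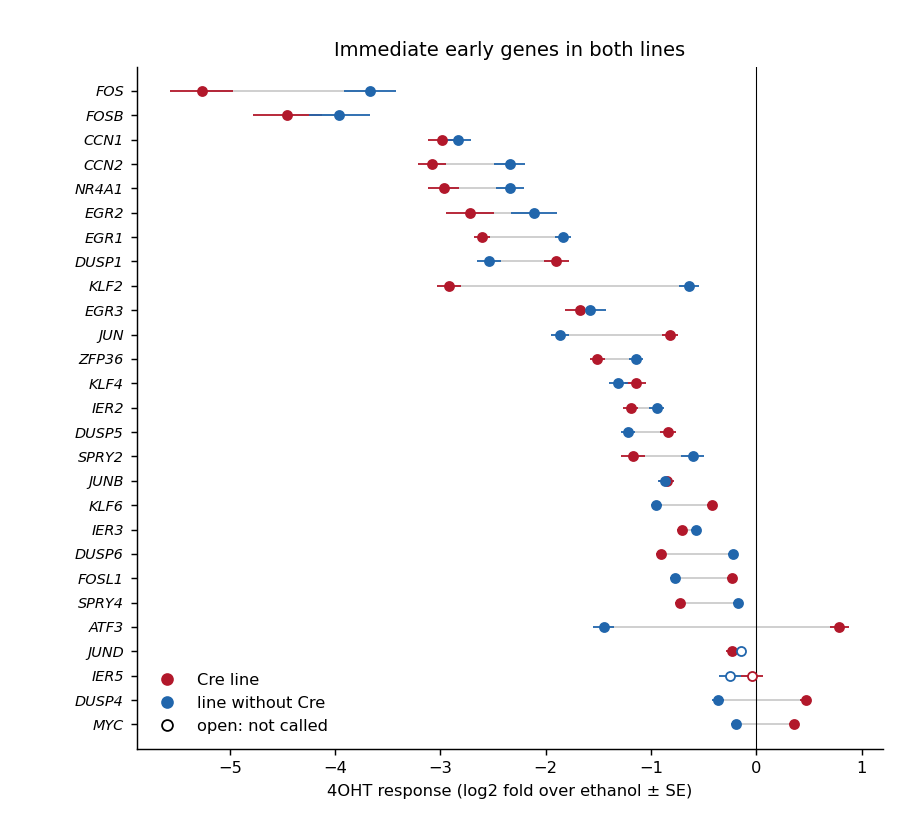
Each row is an immediate early gene, with its log2 4OHT response (x axis, bars ± 1 standard error) in the Cre line in red and in the line without Cre in blue, and open points where the response was not called. In most rows both points lie left of 0, from FOS at -5.27 with Cre and -3.67 without, while KLF2 and ATF3 are far apart.

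Where the difference was at least 2-fold, the Cre-line response was called in the same direction for 518 of 564 higher genes (91.8%) and 1370 of 1472 lower genes (93.1%). The opposite response without Cre was called for 79 of the higher genes (14%) and 258 of the lower (17.5%), and it was the larger of both parts for 62 (11%) and 102 (6.93%). ADAMTS2, a procollagen protease, had 1.06 and 1.16 CPM with 4OHT against 7.37 and 5.27 CPM with ethanol in the Cre line, and 8.42 and 7.91 CPM with 4OHT against 4.66 and 5.16 CPM with ethanol in the line without Cre, a difference of -3.24 ± 0.30 (adjusted p = 2.14e-06). SERPINA5, a protease inhibitor, had 1.28 and 1.31 CPM with 4OHT against 5.39 and 6.6 CPM with ethanol in the Cre line, and 9.16 and 8.74 CPM with 4OHT against 4.36 and 5.63 CPM with ethanol in the line without Cre, a difference of -3.06 ± 0.28 (adjusted p = 1.93e-06). SEPTIN4 had 2.06 and 1.62 CPM with 4OHT against 9.58 and 10.2 CPM with ethanol in the Cre line, and 11 and 9.76 CPM with 4OHT against 6.23 and 7.47 CPM with ethanol in the line without Cre, a difference of -3.02 ± 0.23 (adjusted p = 3.8e-07). In these 3 genes the Cre 4OHT libraries were lowest and the no-Cre 4OHT libraries at or near the top.

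A second route to Ku80 loss in the series shares no library with this comparison. HCT116 clones 1, 7 and 9 carried Ku80 with an auxin-inducible degron and were given the auxin IAA at 100 µM and doxycycline at 0.5 µg/mL for 4 days, against DMSO for 2 days, with 3 libraries in each group. Compounds and days thus differ along with Ku80. There 3379 of 18877 genes rose (17.9%) and 2819 fell (14.9%). XRCC5 RNA fell by 0.50 on the log2 scale in those clones, where the protein and not the gene is removed. Of 16462 genes tested in both, 3118 were Cre-specific higher and 3726 lower, while 3252 rose and 2744 fell in the degron clones. The genes higher in both numbered 1291, which is 41.4% of the Cre-specific higher genes and 39.7% of the degron higher genes. Another 1385 were lower in both, which is 37.2% and 50.5%. Genes called Cre-specific higher and degron lower numbered 240, which is 7.7% of the Cre-specific higher genes. Those called Cre-specific lower and degron higher numbered 317, which is 8.51% of the Cre-specific lower genes. No test of the difference between the routes was made, and values are set side by side.

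In the degron clones 62 of 64 interferon-stimulated genes rose and 0 fell, beside 17.9% and 14.9% over all genes tested there. The same shares stand beside the IAA counts that follow. The median log2 change of the interferon-stimulated genes was 2.36 beside the Cre-specific median of 0.93. The replication list had 46 of 47 members lower with a median of -1.42 beside -2.09, and the mitosis list 40 of 41 with a median of -1.80 beside -2.32. Of 52 p53 targets 28 rose and 4 fell, with a median of 0.59 beside 1.06. Immediate early genes, which fell with 4OHT in both lines, did not fall with IAA: 16 of 27 rose and 0 fell with IAA, with a median of 0.75. Of 36 ribosome biogenesis genes 1 was higher and 26 lower with IAA, beside 13 higher and 7 lower in the Cre-specific part, or 6 and 9 there under limma on log2(TPM + 1).

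For single members, GALNT5 changed by 4.55 with IAA beside 3.57 for the Cre-specific difference, PEG10 by -3.38 beside -3.40, and H2AC6 by 1.72 beside 2.75. IFI6 changed by 5.92 beside 2.16. OAS1 averaged 20.1 CPM with IAA and 0.129 CPM with DMSO, a level near 0. No fold is given for it. KRTAP3-1 averaged 0 CPM with IAA and 0.155 CPM with DMSO, too low to compare. KLK6 and KRT80 were not called with IAA, at 0.40 and 0.38, nor were FAM72C and ADAMTS2, at -0.42 and -0.76.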

How the data were processed

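Poly-A enriched RNA of HCT116 cells was sequenced by a method the labels call AmpSeq. The authors deposited estimated counts per gene, as values that need not be whole, and TPM per gene for the same libraries. Per the submitters' processing notes the tools and build were Salmon 1.10.2, kallisto 0.50.0, DESeq2 and GRCh38, with no roles, and which tool made which table is not given in the sources used here.

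Estimated counts of 8 libraries were rounded and fitted in R 4.3.3 with edgeR 4.0.16 (filterByExpr, TMM scaling, quasi-likelihood test, 4 groups, 4 residual degrees of freedom). The Cre-specific part was the contrast of the Cre-line response minus the other response. P-values were adjusted by Benjamini-Hochberg over all 16726 genes, of which 14806 have a symbol, and the threshold was 0.05. The common biological coefficient of variation was 4.63%. With 2 libraries a group no exact permutation test can reach the threshold, so none is given. The degron comparison was fitted in edgeR on 32 libraries of 12 groups (20 residual degrees of freedom, coefficient of variation 21.7%). These groups include MAVS knockout clones and cells given a CDK inhibitor, and all groups share the estimate of spread. The IAA and DMSO libraries compared came from the same clones, but the fit used groups only. With a block for the clone number, 6404 genes were called in place of 6198. The degron values given are from the fit without that block. CPM used the library totals of the tested genes multiplied by the TMM factors. The CPM limit given for IFNB1 used totals without these factors.

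The model was tested on simulated data: over 16417 genes the contrast recovered 94% of genes set 2-fold higher, 84% set 2-fold lower, 70% set 1.5-fold higher and 58% set 1.5-fold lower, and 11 of 164 calls (6.71%) were false. Each setting held 50 changed genes, drawn only from genes with a mean above 50 counts. They were a small share of all genes, whereas 6885 were called in these data. The rates may therefore not hold for genes at low levels or for these data. Libraries of a group differed by more than sampling noise (chi-square per degree of freedom 1.98 to 5.55). The count depth limits the precision at low levels, and a count of 0 is read as up to 3 counts. That limit covers counting error only.

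Named genes were XRCC5, XRCC6, PRKDC, the 4 nearest tested genes on each side of XRCC5, the 12 largest called differences in each direction with a mean of at least 5 CPM, up to 6 genes called in opposite directions, up to 4 shared responses and up to 4 called members of a list by size. The 12 in each direction also needed a symbol and both same-numbered responses of the Cre line beyond those of the other line. Genes called in opposite directions and shared responses needed a symbol and a mean of at least 5 CPM too. Others are said to be picked, and members named with values that did not pass the test were picked too. The members and all 35 lists were chosen with earlier results of these data known. RefSeq tables of GRCh38.p14 gave gene order and promoters by symbol, for 11426 of 16726 tested genes (68.3%), from the first-listed start. Alternatives were DESeq2 1.42.0, RLE scaling, limma 3.58.1 on TPM with a pseudocount of 1 or 0.1 before log2, no filter, a fit on all 40 HCT116 libraries, a replicate block, each library left out, and glmTreat against 1.2-fold. Some genes that the rule names are not reported here.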

Additional observations from a re-analysis of the deposited data

Results flagged for a closer look

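The 4OHT response differed between the Cre line and the line without Cre in 6885 genes by the contrast of the 2 responses. Among genes with called responses of opposite sign in the 2 lines, the 6 largest differences were looked at singly. These genes also needed a symbol and a mean of at least 5 CPM, so larger differences at lower levels are not among them. The log2 difference of responses was 4.06 for CPA4 and 3.04 for KRTAP2-3, which rose with 4OHT in the Cre line and fell with it without Cre. It was -3.30 for WDR76, -3.24 for ADAMTS2, -3.06 for SERPINA5 and -3.02 for SEPTIN4, which fell in the Cre line and rose without Cre.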

How the results depend on the processing

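The difference of responses was called for 6885 genes in edgeR, 5069 in DESeq2 and 5101 in limma on log2(TPM + 1), and 73.3% and 62.7% of the edgeR calls were also called there. With all 40 HCT116 libraries in the fit the counts were 1763 for the difference, 3664 for the Cre line and 23 for the line without Cre. Against a 1.2-fold minimum (glmTreat) they were 4568, 5796 and 333. In the line without Cre, DESeq2 called 1330 genes and limma 574 or 594 with a pseudocount of 1 or 0.1. Leaving out 1 library gave 5679 to 7125 genes for the difference, 7371 to 9596 for the Cre line, 773 to 2720 for the line without Cre and 5052 to 6174 for the degron clones, which gave 3892 when only their 6 libraries were fitted. Under limma with pseudocounts 1 and 0.1, 3 of the genes named changed sign: MREG was -0.21 and -0.22, SMARCAL1 -0.080 and -0.085, and DDX41, called in edgeR, -0.0355 and -0.0359. Without 4OHT replicate 1 or 2 of the line without Cre, FOSB was -1.17 or 0.80 and CCN1 -0.45 or 0.21. The causes were not tested.

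Of 1330 values of 148 genes under the other alternatives, 1252 kept direction and side of the threshold, 68 lost the call, 4 gained it and 6 changed sign. Of 1184 values with 1 library left out, 1139 kept both. Replicate numbers were not shown to pair libraries, with correlations of deviations of 0.012 in the Cre line and 0.063 in the other. A replicate block gave 6811 genes for the difference, and a block within each line 7301, with 8960 and 9368 for the Cre line and 2238 and 2985 for the line without Cre. Under these blocks GBP2 had an adjusted p of 0.0533 and 0.0594, and under the block within each line RPL37A had 0.0346. Depth limits genes under 1 CPM, where the median standard error was 0.783.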

Other observations

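The 5.8S ribosomal RNA row held 117 counts in Cre 4OHT replicate 1 and 130 counts in Cre ethanol replicate 1, and 0 in the other 6 libraries. HBA1, the alpha globin gene in the list of blood and stromal markers, stayed at or under 1.22 CPM. It had 0 and 0.232 CPM with 4OHT against 0 and 0.242 CPM with ethanol in the Cre line, and 1.22 and 0.829 CPM with 4OHT against 0 and 0 CPM with ethanol in the line without Cre. The fitted difference of HBA1 passed the edgeR test (adjusted p = 0.0378) and did not without any 1 of 6 libraries (all but Cre 4OHT replicate 2 and Cre ethanol replicate 1), and a fold against libraries at 0 is not given.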
